A study of Mus musculus with 18 samples.

Results

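The 10 genes described here, Sparc, Sparcl1, Thbs1, Thbs2, Thbs3, Thbs4, Gpc4, Gpc6, Spock1 and Spock3, encode members of the SPARC and thrombospondin families and glypicans. Several of these proteins, though not all, are known as factors that glia release or display around developing synapses. The genes were taken by name from the authors' coexpression table, each was represented by 1 probe set, and they are 10 of the 23850 genes measured. The cells came from spinal cords of mouse embryos carrying the Aldh1l1-GFP transgene on a Swiss-Webster background, in which green fluorescent protein marks cells that use the promoter of the astrocyte enzyme Aldh1l1. The study sorted GFP-positive cells (GFP cells) and, from cords with the same transgene, all live cells, and 17 arrays enter the comparisons. For the GFP cells these are 3 arrays of E13.5, 2 of E14.5 and 3 of a late age that joins E17.5 (2 arrays) with E18.5 (1 array). For all live cells there are 3 of E13.5, 3 of E14.5 and 3 late ones, again 2 of E17.5 and 1 of E18.5. All live cells include the GFP cells, so a difference between the sorts is smaller than one against GFP-negative cells would be. The titles speak of all live cells, whereas the shared treatment text speaks of GFP-negative cells, and the titles were followed. The labels name neither litters nor animals, so the errors measure the spread between these arrays.

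Synapses between cultured neurons form in larger numbers when astrocytes are present, and several astrocyte proteins account for that activity. Thrombospondins act through the calcium channel subunit Cacna2d1 and raise the number of structurally complete but silent synapses. Sparcl1 (hevin) bridges neurexins and neuroligins and promotes excitatory synapses, while its relative Sparc, a collagen-binding matrix protein, opposes it in culture. The glypicans Gpc4 and Gpc6, heparan sulfate proteoglycans of the cell surface, bring AMPA receptors to synapses. Spock1 and Spock3 (testican-1 and testican-3) are proteoglycans that carry the calcium-binding domain of SPARC.

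Aldh1l1 averaged 9.94 log2 in GFP cells and 7.76 in all live cells at E13.5, and its ranges did not overlap at any age, which fits the labels of the sorts. Arrays of 1 group correlated at 0.985 to 0.994 over all genes. Levels are log2 expression values as deposited, so a difference of 1 is a doubling. Levels of different genes cannot be set against each other, since each probe set has its own response. Errors after ± are limma's standard errors unless named as SD, and a gene is said to be higher or lower when its adjusted p over all 23850 genes was below 0.05.

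In GFP cells against all live cells, 5 of the 10 genes were higher at E13.5 (Sparcl1, Sparc, Gpc4, Thbs3 and Thbs2), beside 11.1% of all genes, and both testican genes were lower, beside 8.01%. On E14.5 arrays there were again 5 higher (Sparcl1, Gpc4, Sparc, Thbs3 and Gpc6), beside 10.3% of all genes, and both testican genes were lower, beside 8.22%. Late in gestation 1 of the 10 was higher (Gpc4), beside 4.6% of all genes, and 2 were lower (Spock1 and Spock3), beside 4.68%. The median difference of the 10 genes was 0.39 for E13.5, 0.31 for E14.5 and 0.14 for the late arrays, against -0.04, -0.03 and 0.04 for all genes. In bulk samples such as these, fewer cells of a type and less RNA per cell cannot be told apart.

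**Figure D1:**
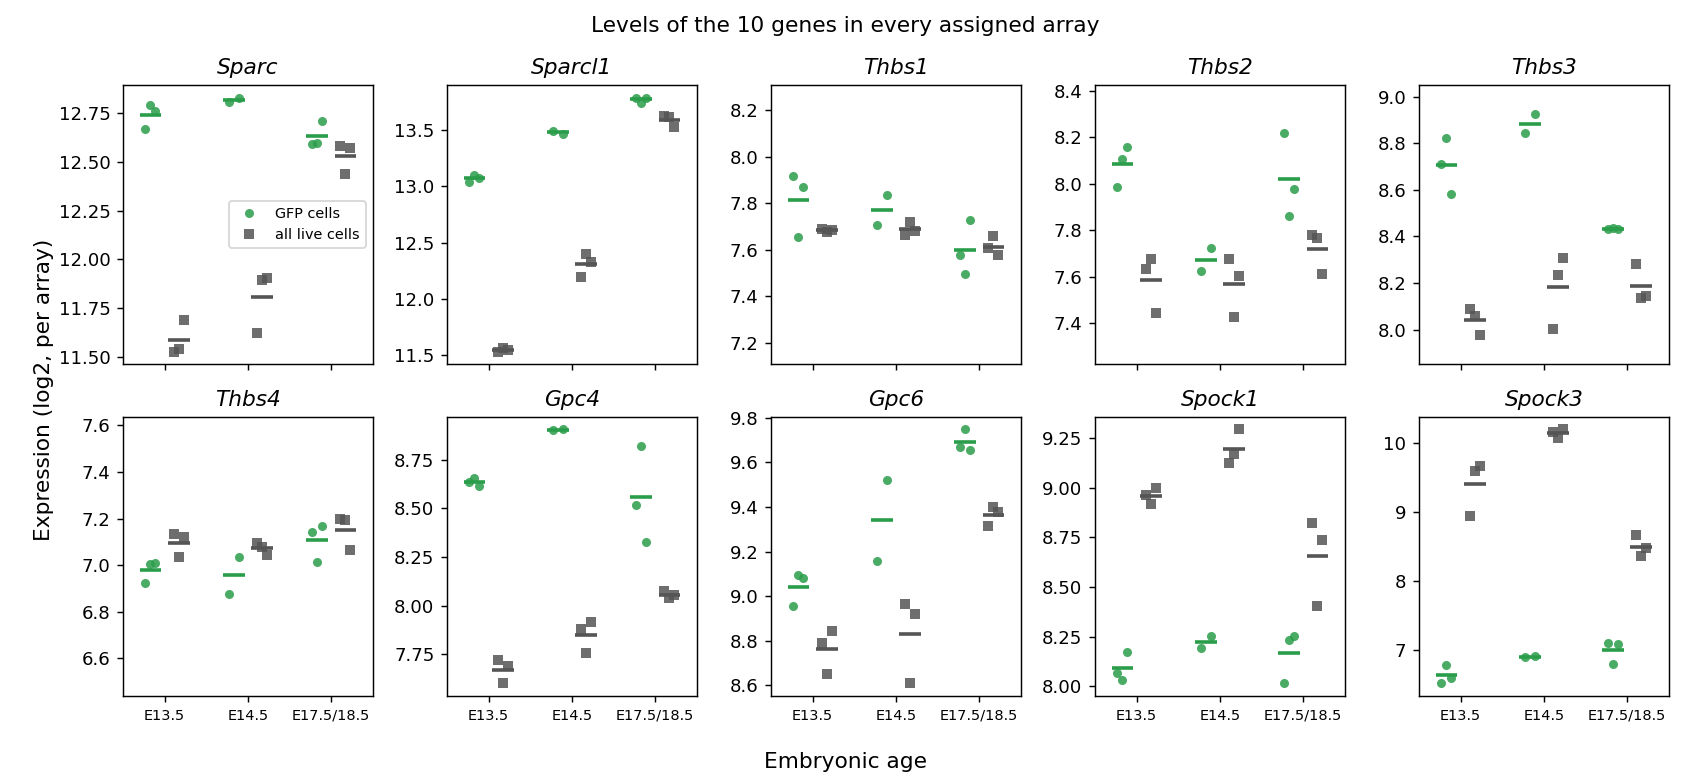
Expression of each gene in every assigned array (log2, y axis with its own range in each panel) by age (x axis), with GFP cells as circles left of all live cells as squares and bars at the group means. Sparcl1 and Sparc in all live cells approach the level of GFP cells at the late age, while Spock3 stays between 6.51 and 7.10 in GFP cells at every age.

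**Figure D2:**
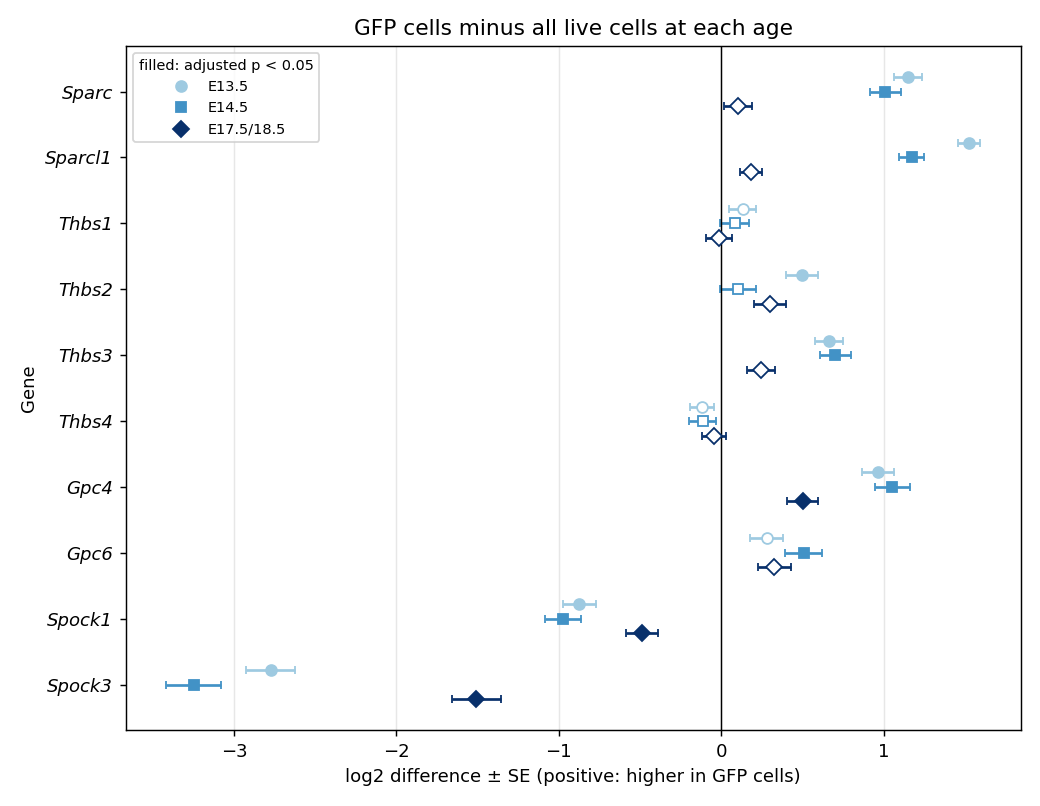
Difference between GFP cells and all live cells at each age (log2, x axis) for the 10 genes (y axis), with bars for 1 standard error and filled marks for an adjusted p below 0.05. The differences of Sparc and Sparcl1 lie above 1 on both earlier days, and late they are 0.10 and 0.18.

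Sparcl1 was at 13.04, 13.10 and 13.07 log2 in GFP cells of E13.5, against 11.53, 11.56 and 11.55 in all live cells. At E14.5 the values were 13.49 and 13.47 in GFP cells, against 12.20, 12.40 and 12.33 in all live cells. Late arrays had 13.79, 13.74 and 13.79 in GFP cells, against 13.63, 13.61 and 13.53 in all live cells. The sorts were apart at every age, and in both sorts no range of one age touched that of another. GFP cells were 2.88-fold higher at E13.5 (1.53 ± 0.07, adjusted p = 2.2e-10, limma) and 2.26-fold higher at E14.5 (1.17 ± 0.08, adjusted p = 2.5e-08, limma). At the late age the gap was 0.18 ± 0.07 and did not pass (adjusted p = 0.111, limma), although it passed with limma's variance trend and robust settings used together (adjusted p = 0.031). By the late age Sparcl1 had risen by 0.70 ± 0.07 in GFP cells and by 2.04 ± 0.07, or 4.12-fold, in all live cells, relative to E13.5. The interaction, the late difference between the sorts minus that at E13.5, was -1.34 ± 0.10 (adjusted p = 7.1e-07, limma). Within GFP cells Sparcl1 was higher at E14.5 than at E13.5 by 0.41 ± 0.08 (adjusted p = 0.0092, limma), and higher late than at E14.5 by 0.29 ± 0.08 (adjusted p = 0.028, limma). The E14.5 step lost its call without GFP E14.5 replicate 1 or 2 (adjusted p = 0.113 and 0.0908) and with quantile normalization (0.0628). The late step lost it without GFP E14.5 replicate 1 or 2 (0.133 and 0.181), without GFP late replicate 1 or 3 (0.0637 and 0.0609), with median shifting or quantile normalization (0.0698 and 0.0862), with only these groups fitted (0.16), with the replicate block (0.0534) and without the E18.5 arrays (0.0556).

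Sparc, the close relative that opposes Sparcl1 in culture, was at 12.67, 12.79 and 12.76 log2 in GFP cells of E13.5, against 11.53, 11.54 and 11.69 in all live cells. On E14.5 arrays it was at 12.81 and 12.83 in GFP cells, against 11.62, 11.89 and 11.90 in all live cells. By the late age the values were 12.59, 12.60 and 12.71 in GFP cells, against 12.58, 12.44 and 12.57 in all live cells. GFP cells thus stayed within a narrow band at all ages, while all live cells came up to the edge of it. The difference between the sorts was 1.15 ± 0.09 at E13.5 (2.22-fold, adjusted p = 7.2e-08, limma) and 1.01 ± 0.10 at E14.5 (2.02-fold), and it was 0.10 ± 0.09 at the late age (adjusted p = 0.56, limma). Between E13.5 and the late age GFP cells differed by -0.11 ± 0.09 (adjusted p = 0.446, limma) and all live cells were higher by 0.94 ± 0.09, or 1.92-fold. The interaction was -1.05 ± 0.12 (adjusted p = 7.2e-05, limma). In the order of group means, GFP cells of E13.5 overlapped GFP cells of the late age, and all live cells of E14.5 overlapped those of E13.5.

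Both genes lay near the top of the measured range, with 99.9% of genes below Sparcl1 and 99.6% below Sparc by mean level. Levels of cell type markers in all live cells moved with age as well. The mean over 8 astrocyte markers in all live cells was 10.61 to 10.71 log2 late and 8.85 to 8.91 at E13.5, with 8 of 8 higher late. Within GFP cells 7 of the 8 were higher late too, with means of 11.44 to 11.50 late and 9.96 to 10.03 at E13.5. Most endothelial and mural markers showed the same direction in all live cells. Of 6 endothelial markers 4 were higher late, with means of 8.05 to 8.26 late and 7.57 to 7.61 at E13.5, and of 6 mural markers 5 were higher (8.97 to 9.64 late and 8.25 to 8.27 at E13.5). In GFP cells 0 of the 6 endothelial markers differed between these ages (limma, and 0 at an unadjusted p below 0.05), and 2 of the 6 mural markers were higher. Of the other marker lists in all live cells, 4 of 5 microglial and 4 of 4 oligodendrocyte lineage markers were higher late, 4 of 6 meningeal fibroblast markers and 1 of 5 erythroid markers were lower, and 5 radial glia markers had 1 higher and 1 lower. The part of these cells in the change of Sparc and Sparcl1 was not tested.

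Among the thrombospondins, Thbs3, which assembles into pentamers, was the one with a difference at both early ages. It was at 8.71, 8.83 and 8.58 log2 in GFP cells of E13.5, against 8.09, 8.06 and 7.98 in all live cells. The E14.5 arrays had 8.85 and 8.92 in GFP cells, against 8.003, 8.23 and 8.31 in all live cells. The late arrays gave 8.43, 8.44 and 8.43 in GFP cells, against 8.28, 8.14 and 8.14 in all live cells. GFP cells were above all live cells without overlap at each age. The difference was 0.67 ± 0.09 at E13.5 (1.59-fold, adjusted p = 2.8e-05, limma), 0.70 ± 0.10 at E14.5 (1.63-fold) and 0.25 ± 0.09 at the late age (adjusted p = 0.0928, limma). In GFP cells Thbs3 fell by 0.45 ± 0.10 between E14.5 and the late age (adjusted p = 0.0089, limma; 0.11 without GFP E14.5 replicate 2 and 0.0508 with only these groups fitted). The fall from E13.5 (-0.27 ± 0.09, adjusted p = 0.041, limma) lost its call without any of 5 of the 6 arrays (adjusted p from 0.0833 to 0.179, all but GFP E13.5 replicate 3), under quantile normalization and in several other fits. The interaction was -0.42 ± 0.12 (adjusted p = 0.064, limma), and it passed with median shifting (adjusted p = 0.0438), without the dimmer genes (0.0392) and without GFP E13.5 replicate 3 (0.0481).

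Thbs2, one of the trimeric thrombospondins that immature astrocytes secrete in culture, was at 7.99, 8.11 and 8.16 log2 in GFP cells of E13.5, against 7.63, 7.68 and 7.45 in all live cells. E14.5 arrays read 7.62 and 7.73 in GFP cells, against 7.68, 7.43 and 7.603 in all live cells. Its late values were 8.22, 7.86 and 7.98 in GFP cells, against 7.78, 7.77 and 7.61 in all live cells. The 2 sorts overlapped at E14.5 only. Thbs2 was 1.41-fold higher in GFP cells at E13.5 (0.50 ± 0.10, adjusted p = 0.0017, limma). Its E14.5 difference of 0.10 ± 0.11 and late difference of 0.30 ± 0.10 did not pass (adjusted p = 0.599 and 0.074, limma), though the late one passed without GFP late replicate 2 (0.0415). Thbs1, the other trimer, lay between 7.50 and 7.92 log2 over all arrays, with differences of 0.13 ± 0.08, 0.08 ± 0.09 and -0.01 ± 0.08 between the sorts at the 3 ages and overlapping ranges at each. Its late value in GFP cells against E13.5 was -0.21 ± 0.08 (adjusted p = 0.086, limma), which passed with median shifting (0.0324), with quantile normalization (0.0365), without GFP E13.5 replicate 2 (0.0292), without GFP late replicate 3 (0.0423) and without both E18.5 arrays (0.0436). Platelets store Thbs1, and of 4 platelet markers 1 was lower in GFP cells at E13.5 and 1 at the late age, with no other call between the sorts. Thbs4, a pentamer, lay between 6.88 and 7.20, with differences of -0.12 ± 0.07, -0.11 ± 0.08 and -0.04 ± 0.07. The medians of the arrays over all genes were 7.73 to 7.82, so Thbs1 and Thbs2 lay about them and Thbs4 below them on every array. The deposited values carry no detection call.

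Gpc4, the glypican that recruits AMPA receptors to young synapses, was at 8.64, 8.66 and 8.61 log2 in GFP cells of E13.5, against 7.72, 7.601 and 7.69 in all live cells. At E14.5 the values were 8.90 and 8.91 in GFP cells, against 7.88, 7.76 and 7.91 in all live cells. Toward birth the arrays read 8.52, 8.82 and 8.33 in GFP cells, against 8.07, 8.04 and 8.05 in all live cells. Every GFP array was above every array of all live cells, whatever the age. The difference was 0.97 ± 0.10 at E13.5 (1.95-fold, adjusted p = 1.7e-06, limma), 1.06 ± 0.11 at E14.5 (2.08-fold) and 0.50 ± 0.10 at the late age (1.42-fold, adjusted p = 0.0025, limma; 0.0702 with only the late groups fitted). All live cells were higher at the late age than at E13.5 by 0.39 ± 0.10 (adjusted p = 0.0078, limma), while GFP cells differed by -0.08 ± 0.10 (adjusted p = 0.634). Every late GFP array was below both GFP arrays of E14.5. That fall was not called in the fit of all groups. It passed with median shifting (-0.40, adjusted p = 0.0266, limma), without the dimmer genes (0.0416) and without GFP late replicate 2 (-0.48, adjusted p = 0.00386). The interaction for Gpc4, -0.46 ± 0.14, did not pass (adjusted p = 0.064, limma), but did with median shifting (0.0351), without the dimmer genes (0.0398) and without GFP late replicate 2 (-0.60, adjusted p = 0.0051), the highest of the late GFP arrays.

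Gpc6, the second glypican of this kind, was at 8.95, 9.10 and 9.08 log2 in GFP cells of E13.5, against 8.79, 8.65 and 8.85 in all live cells. On E14.5 arrays it was at 9.16 and 9.52 in GFP cells, against 8.96, 8.61 and 8.92 in all live cells. Late samples read 9.67, 9.75 and 9.66 in GFP cells, against 9.31, 9.40 and 9.38 in all live cells. It was higher late than at E13.5 in both sorts, by 0.65 ± 0.10 in GFP cells (1.57-fold, adjusted p = 0.00029, limma) and by 0.60 ± 0.10 in all live cells (1.52-fold, adjusted p = 0.00038, limma). The interaction was 0.05 ± 0.15 (adjusted p = 0.889, limma). Between the sorts the difference was 0.28 ± 0.10 at E13.5 (adjusted p = 0.0703, limma), 0.51 ± 0.12 at E14.5 (adjusted p = 0.0041, limma; 0.133 without GFP E14.5 replicate 2) and 0.33 ± 0.10 at the late age (adjusted p = 0.0571, limma). The E13.5 and late values passed with median shifting (0.0266 and 0.0378) and without the dimmer genes (0.0441 and 0.0383), and that of E13.5 also with only its 2 groups fitted (0.0329).

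Over the 17 arrays, Gpc4 and Thbs3 tracked each other at a Pearson r of 0.906, as a description over arrays that share ages and sorts. Their promoters are shown for that reason, from RefSeq (build GRCm38.p6), as the 250 bases before and the 50 after the gene start, 5′ to 3′. The Gpc4 promoter is at chrX:52164874-52165173, minus strand, and that of Thbs3 at chr3:89214930-89215229, plus strand. Capitals mark 6 motifs searched on both strands, namely TATAAA (the TATA box), CCAAT (the CCAAT box), GGGCGG (the GC box), ACAAT (the Sox core), TTGGC (the nuclear factor I core) and TGACNNNGC, the core of the antioxidant response element read by CNC-bZIP factors such as Nfe2l1.
Gpc4: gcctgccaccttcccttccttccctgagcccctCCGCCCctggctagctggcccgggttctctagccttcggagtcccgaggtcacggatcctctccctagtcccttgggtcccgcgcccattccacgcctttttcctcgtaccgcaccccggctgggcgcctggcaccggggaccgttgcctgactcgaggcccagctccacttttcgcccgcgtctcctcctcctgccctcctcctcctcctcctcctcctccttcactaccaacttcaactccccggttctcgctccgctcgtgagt
Thbs3: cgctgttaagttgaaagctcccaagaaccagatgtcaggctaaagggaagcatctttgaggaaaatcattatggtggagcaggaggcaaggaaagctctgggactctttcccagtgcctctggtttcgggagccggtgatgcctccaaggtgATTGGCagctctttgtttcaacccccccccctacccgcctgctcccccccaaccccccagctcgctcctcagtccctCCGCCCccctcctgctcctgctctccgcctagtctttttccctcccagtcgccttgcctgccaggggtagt
Both windows hold the GC box, at -217 in Gpc4 and -21 in Thbs3 relative to the start, a motif found in 35.7% of the 32851 promoters in the table. Thbs3 also has CCAAT (37.4% of promoters) at -98 on the other strand, overlapping TTGGC (46.7%) at -97. Neither window holds the Sox core (31% of promoters), TATAAA (13.6%) or TGACNNNGC (12.4%).

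The testican genes ran the other way, and Spock3 had the largest difference of the 10 genes between the sorts at every age. It was at 6.51, 6.77 and 6.59 log2 in GFP cells of E13.5, against 8.93, 9.59 and 9.67 in all live cells. The E14.5 arrays had 6.89 and 6.90 in GFP cells, against 10.16, 10.07 and 10.20 in all live cells. The late values were 7.10, 6.78 and 7.08 in GFP cells, against 8.66, 8.35 and 8.47 in all live cells. In GFP cells it lay below the array medians throughout, and in all live cells the 3 ages did not overlap, with E14.5 highest. Spock3 was lower in GFP cells, with differences of -2.77 ± 0.15 at E13.5 (6.84-fold, adjusted p = 2.9e-09, limma), -3.25 ± 0.17 at E14.5 (9.50-fold) and -1.51 ± 0.15 late (2.84-fold, adjusted p = 4.6e-06, limma). From E13.5 to the late age it fell in all live cells (-0.90 ± 0.15, adjusted p = 0.00029, limma), while GFP cells differed by 0.36 ± 0.15 (adjusted p = 0.121). The interaction was 1.27 ± 0.21 (adjusted p = 0.002, limma).

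Spock1 was at 8.07, 8.03 and 8.17 log2 in GFP cells of E13.5, against 8.96, 8.92 and 9.002 in all live cells. E14.5 arrays read 8.19 and 8.25 in GFP cells, against 9.12, 9.17 and 9.30 in all live cells. On late arrays the level was 8.01, 8.23 and 8.25 in GFP cells, against 8.82, 8.41 and 8.74 in all live cells. In GFP cells the late range overlapped those of both earlier ages, and every GFP array was below every array of all live cells. Spock1 was lower in GFP cells, with differences of -0.87 ± 0.10 at E13.5 (1.83-fold, adjusted p = 7e-06, limma), -0.97 ± 0.11 at E14.5 (1.97-fold) and -0.49 ± 0.10 at the late age (1.40-fold, adjusted p = 0.0042, limma; 0.0819 with only the late groups fitted). Its fall with age in all live cells (-0.31 ± 0.10, adjusted p = 0.037, limma) lost its call without E13.5 replicate 1, 2 or 3 or late replicate 2 of all live cells (adjusted p = 0.0881, 0.064, 0.112 and 0.196). The interaction was 0.39 ± 0.14 (adjusted p = 0.143, limma).

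All 7 neuron markers were, like both testicans, lower in GFP cells at each age. Their mean level was 9.07 to 9.20 in GFP cells and 10.38 to 10.51 in all live cells at E13.5, 8.67 to 8.79 in GFP cells and 10.43 to 10.59 in all live cells at E14.5, and late it was 7.80 to 7.89 in GFP cells and 9.14 to 9.46 in all live cells. In all live cells 6 of the 7 fell with age. In GFP cells 5 of the 7 fell with age, and neither testican was called there (0.08 ± 0.10 for Spock1 and 0.36 ± 0.15 for Spock3). Spock3 was already below the array medians in GFP cells of E13.5, at 6.51 to 6.77, so a fall there may not show. The part of neurons in the testican values was not tested. Spock1 and Spock3 tracked each other at a Pearson r of 0.969 over the 17 arrays, the highest of the 45 pairs, and their promoters (RefSeq, GRCm38.p6, same window and capitals as above) are at chr13:57908283-57908582, minus strand, for Spock1 and chr8:62950982-62951281, plus strand, for the first of 2 starts of Spock3.
Spock1: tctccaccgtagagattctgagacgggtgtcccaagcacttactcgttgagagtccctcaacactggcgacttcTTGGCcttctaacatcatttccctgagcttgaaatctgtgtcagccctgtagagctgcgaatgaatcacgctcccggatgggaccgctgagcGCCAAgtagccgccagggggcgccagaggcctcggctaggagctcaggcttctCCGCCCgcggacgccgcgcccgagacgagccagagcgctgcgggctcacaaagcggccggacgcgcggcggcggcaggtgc
Spock3: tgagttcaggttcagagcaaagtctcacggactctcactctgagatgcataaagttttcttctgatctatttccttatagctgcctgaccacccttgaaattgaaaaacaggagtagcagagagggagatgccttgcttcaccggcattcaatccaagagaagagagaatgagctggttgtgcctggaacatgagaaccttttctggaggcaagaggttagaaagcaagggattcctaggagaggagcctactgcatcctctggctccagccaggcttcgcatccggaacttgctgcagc
Spock1 holds the GC box at -31 and TTGGC at -176 and -84, and its window is 64% G or C. Neither start of Spock3 holds any of the 6 motifs, and the windows of its first and second start are 49% and 59.0% G or C, around the median of 52.7% over all promoters.

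With age, 2 of the 10 genes were higher late than at E13.5 in GFP cells (Sparcl1 and Gpc6), beside 7.3% of all genes, and 1 was lower (Thbs3), beside 8.93%. Among all genes called in that contrast 45.0% were higher, and 31.8% with median shifting. In all live cells 4 of the 10 were higher (Sparcl1, Sparc, Gpc6 and Gpc4), beside 10.2%, and 2 were lower (Spock3 and Spock1), beside 9.99%. In GFP cells of E14.5 against E13.5, 1 of the 10 was higher (Sparcl1), beside 0.914% of all genes, and 0 were lower (limma, beside 0.591%), with 4 of the 10 at an unadjusted p below 0.05. In late GFP cells against those of E14.5, 1 was higher (Sparcl1), beside 2.95%, and 1 lower (Thbs3), beside 3.28%, with 47.4% of all called genes higher, or 33.9% with median shifting. The interaction was positive for 1 of the 10 (Spock3), beside 1.6% of all genes, and negative for 2 (Sparcl1 and Sparc), beside 2.99%. These comparisons share arrays, so their counts are not independent.

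**Figure D3:**
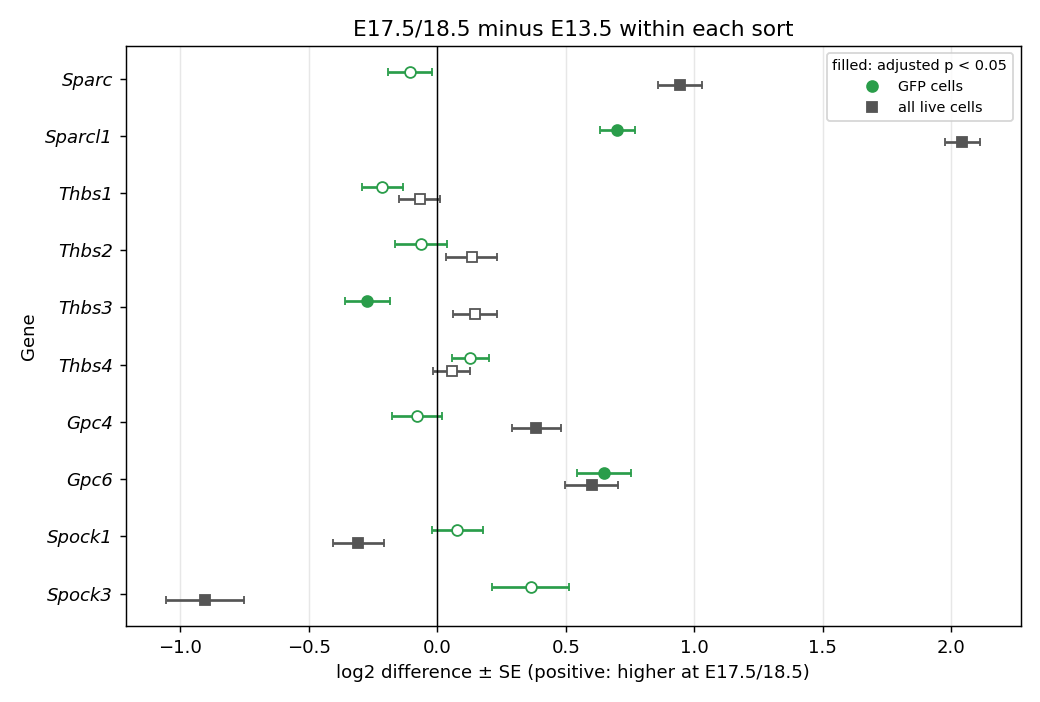
Late arrays minus E13.5 arrays (log2, x axis) within GFP cells (circles) and within all live cells (squares) for each gene (y axis), with bars for 1 standard error and filled marks for an adjusted p below 0.05. Sparcl1 stands at 0.70 in GFP cells and 2.04 in all live cells, and Gpc6 at 0.65 and 0.60.

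The authors' deposited coexpression table gives each gene's correlation with the profile of 10 modules (kME), which was recomputed from unlogged values of the 17 assigned arrays. By that table Thbs3 belonged to the red module, which the authors call early Nfe2l1 (kME 0.94), and Gpc4 had 0.88 for it. Sparc (0.92) and Sparcl1 (0.89) were highest for turquoise, the middle astrocyte Id3 module, and Sparcl1 had nearly as much for yellow (0.88), the late astrocyte Apoe module. Gpc6 was highest for yellow (0.91). Spock1 (0.93) and Spock3 (0.94) belonged to blue, named as non-astrocyte. Thbs2 was highest for pink (0.75), named for astrocyte mitosis. Sparc, Thbs1 and Thbs4 were assigned to no module in the authors' deposited table. The highest values of Thbs1 and Thbs4 were 0.58 (black) and 0.60 (magenta), and Thbs4 was at -0.69 for red. The kME values come from the same arrays as the differences above and are no separate evidence of them.

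**Figure D4:**
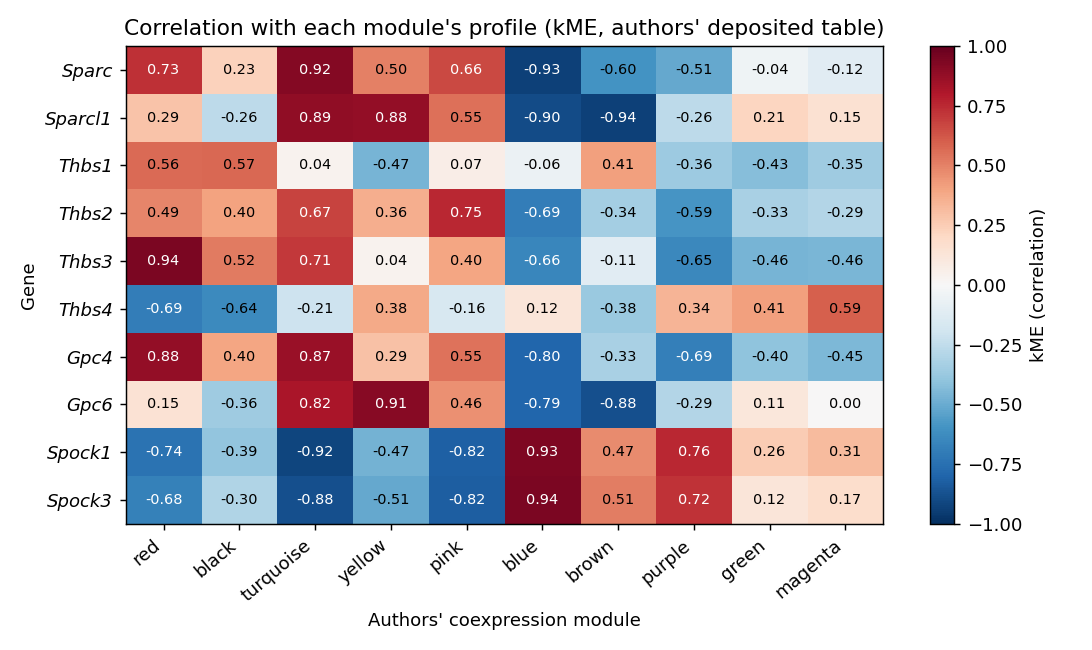
Correlation (kME, colour and number) of each of the 10 genes (rows) with the profile of each of the authors' 10 modules (columns), from the authors' deposited table. Sparc, Sparcl1, Gpc4 and Gpc6 are above 0.80 for turquoise, Thbs3 is at 0.94 for red, and both testicans are above 0.90 for blue.

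The genes closest in pattern over the 17 arrays, by Pearson r of log2 values, were Ndrg2 (0.991), Gabrg1 and Aldoc (0.990 each) for Sparcl1. For Sparc they were Spon1 (0.975), Etv1 (0.971) and Zdhhc2 (0.968), for Gpc4 Notch2 (0.968), Neo1 (0.961) and Arhgef4 (0.960), and for Gpc6 Tmem38a (0.968), Specc1 (0.967) and Slc38a3 (0.954). Thbs3 was closest to Dcbld1 (0.951), Igfbp5 (0.949) and Scrn1 (0.948). Spock3 was closest to Elmod1 and Sv2c (0.989 each), and Spock1 to Snap91 (0.973), Dnajc6 (0.971) and Dnm1 (0.970). For Thbs1, Thbs2 and Thbs4 the best values were 0.857 (Slbp), 0.900 (Gdf10) and 0.892 (Eva1a).

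The receptors and partners of these proteins were split between the sorts. Of 21 such genes 5 were higher and 9 lower in GFP cells at E13.5, beside 11.1% higher and 8.01% lower of all genes. The integrin subunits Itgav (1.27 ± 0.10) and Itgb1 (0.64 ± 0.09), parts of matrix receptors, were higher. The neurexin Nrxn3 (-2.00 ± 0.12) and Cacna2d1, the thrombospondin receptor (-1.47 ± 0.27), were lower. At E14.5 there were 4 higher and 7 lower, beside 10.3% and 8.22% of all genes, led by Itgav (1.49 ± 0.12) and Nrxn3 (-1.76 ± 0.13). At the late age 3 were higher and 5 lower, beside 4.6% and 4.68% of all genes. The differences were 0.34 ± 0.10 for the receptor phosphatase Ptprf, -2.16 ± 0.27 for Cacna2d1 and -1.11 ± 0.12 for Lrrtm4, a synaptic partner of glypicans. With age, 7 rose and 3 fell in GFP cells, beside 7.3% and 8.93% of all genes. The AMPA receptor subunit Gria1 (1.09 ± 0.13) was among those that rose. Cacna2d1 (-3.19 ± 0.27) and the phosphatase Ptprs, a glypican receptor (-0.42 ± 0.09), were among those that fell. The neuroligin Nlgn1, a hevin partner picked out after its values were seen, was not called between the sorts at any age (-0.13 ± 0.12, -0.03 ± 0.13 and -0.07 ± 0.12).

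**Figure D5:**
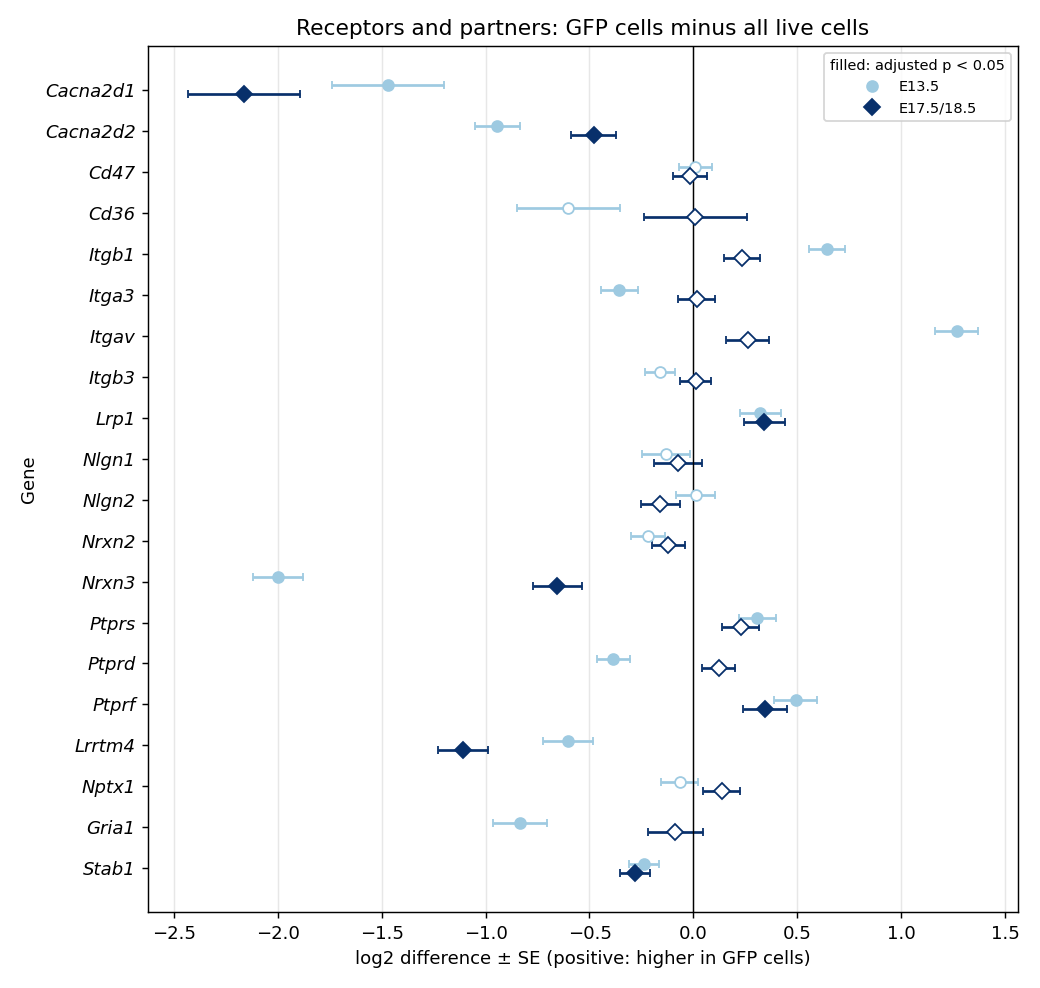
Difference between GFP cells and all live cells (log2, x axis) at E13.5 (circles) and at the late age (diamonds) for the receptors and partners reported here (y axis), with bars for 1 standard error and filled marks for an adjusted p below 0.05. Cacna2d1 is at -1.47 and -2.16 and Itgav at 1.27 and 0.26.

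Of the other SPARC family genes, Fstl1 was higher (0.38 ± 0.12) and Spock2 lower (-0.34 ± 0.10) in GFP cells at E13.5, and 0 of the 4 were called late (limma, and 0 at an unadjusted p below 0.05). Smoc1 rose with age in both sorts, by 0.52 ± 0.14 in GFP cells and 0.73 ± 0.14 in all live cells. Of the other glypicans, Gpc2 (-0.53 ± 0.13) and Gpc5 (-0.35 ± 0.10) were lower at E13.5, and 0 of the 4 were called late (limma, and 1 at an unadjusted p below 0.05). On E14.5 arrays Gpc3 was higher in GFP cells (0.59 ± 0.15), and Gpc5 (-0.65 ± 0.12) and Gpc2 (-0.57 ± 0.14) were lower. Between E13.5 and the late age, Gpc3 (-0.60 ± 0.14) and Gpc2 (-0.51 ± 0.13) fell in GFP cells and Gpc5 rose (0.47 ± 0.10). Comp, the remaining thrombospondin, was not called in any comparison (-0.15 ± 0.09 at E13.5). Of 8 other factors that act on synapses, Sema3a (1.35 ± 0.16) and Tgfb2 (1.10 ± 0.14) were higher and Apoe lower (-0.51 ± 0.10) in GFP cells at E13.5. At E14.5 Apoe was higher in GFP cells (0.47 ± 0.11, adjusted p = 0.0044, limma). The cytokine Il33 was higher late (1.06 ± 0.29), with overlapping ranges. In GFP cells Apoe (2.98 ± 0.10) and Il33 (2.05 ± 0.29) were higher late than at E13.5, and Sema3a was lower (-0.64 ± 0.16).

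The authors' deposited table for E13.5 lists 6 of the 10 genes among 1875, with folds of GFP over whole equal to those above and larger adjusted p-values (0.0105 for Sparc, 0.0175 for Sparcl1, 0.00864 for Gpc4, 0.0233 for Thbs3, 0.0321 for Spock1 and 0.00957 for Spock3). Their late table, of 683 genes, lists 0 of the 10. Their E14.5 table, of 552 genes, lists Gpc4 and Spock3 at log2 0.70 and -2.03 (adjusted p of 0.139 for both in the authors' deposited table). The array that its title calls mislabeled gives these values to 3 decimals when it is averaged with the 2 GFP arrays of E14.5, against 1.06 and -3.25 without it.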

How the data were processed

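Expression was measured on 1-colour arrays with biotin label. The deposited values are log2 expression per probe set, for which the submitters' processing notes list oligo, RMA, limma and the build mm9. The authors' deposited comparison tables give a fold (GFP over whole), a t score and p-values, and their coexpression tables give a kME score with its p-value and the number of seed genes of each module. Per-sample columns that could not be matched to labels (6) were not used.

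Probe sets carry numbers only. They were named by pairing the 23890 rows of the coexpression table with probe sets whose recomputed kME agreed within 1e-08 on all modules. All rows matched (135 to more than 1 probe set, none of the 10 genes), and 1925 of 1952 names also found through the comparison tables were the same. The module profiles behind the recomputed kME were solved from 1932 genes named by the comparison tables, so that agreement is partly built in. Thbs1, Thbs2, Thbs4 and Gpc6 were named through the coexpression table alone. Older symbols were updated with RefSeq, and the brightest probe set of a gene was kept, leaving 23850 genes.

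The 17 assigned arrays were fitted with limma 3.58.1 in R 4.3.3 (6 group means, 11 residual and 5.42 prior degrees of freedom), with Benjamini-Hochberg adjustment over 23850 genes and a threshold of 0.05. The array its title calls mislabeled entered no comparison. On simulated data for GFP against whole at E13.5, the fit called 95.5% of 67 genes given a log2 difference of 1 and 64.2% of those given 0.5. At 0.5 it called 43.3% for GFP E14.5 against E13.5 and 29.9% for the interaction, so uncalled interactions of that size may be missed. Each simulation changed 67, 67 and 66 genes by 0.5, 1 and 2, whereas 4557 genes were called at E13.5 in the data. The adjusted threshold depends on the number of changed genes, so these shares need not hold for the data. Depth does not apply to arrays, and the number of arrays sets the precision. No batch is given in the labels. The 10 genes, the related lists (receptors, relatives, markers) and the tests were chosen with earlier results of these data known, and all 10 genes are named in the text, with the 2 largest calls in each direction named from the related lists, except items that are not reported here. Alternatives were median shifting, quantile normalization, a filter on dim genes, a variance trend together with robust estimation, fitting only the groups compared, a replicate block and leaving out arrays.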

Additional observations from a re-analysis of the deposited data

Results flagged for a closer look

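The enrichment in GFP cells over all live cells differed between E13.5 and the late age for 3 of the 10 genes, by limma's test of the interaction. Among all genes the interaction was called positive for 1.6% and negative for 2.99%. The enrichment was smaller at the late age for Sparcl1 (-1.34 on the log2 scale) and Sparc (-1.05), and the depletion of Spock3 was smaller by 1.27. Sparcl1 and Sparc lay near the top of the measured range, and Spock3 in GFP cells lay below the array medians. Whether either limit narrowed these gaps was not tested. Sparcl1, Sparc and Spock3 were each called in every fit that left out 1 array. A smaller late enrichment was not particular to these genes. Of the 8 astrocyte markers, 4 also had a negative interaction and 3 a positive one. Aldh1l1 itself was higher in GFP cells by 2.19 at E13.5 and by 0.96 late.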

How the results depend on the processing

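Of 1016 values of the 10 genes under alternatives, 949 kept their direction and their side of the threshold, 31 lost a call, 24 gained one and 12 changed sign. None of the 12 was called. Between the sorts late, Thbs1 was at 0.005 with quantile normalization and between -0.077 and 0.038 with 1 array left out, and Thbs4 between -0.088 and 0.004. In GFP cells late against E13.5, Gpc4 was at 0.034 without the E18.5 arrays and between -0.212 and 0.034 with 1 array left out, and Thbs2 between -0.163 and 0.016. With 1 array left out, GFP cells of E14.5 against E13.5 gave -0.124 to 0.019 for Thbs1 and -0.101 to 0.057 for Thbs4, and Spock1 was at -0.097 to 0.021 for GFP late against E14.5. The interaction of Thbs4 was -0.001 without the E18.5 arrays. Fitting only the groups compared gave 1020 genes (2214 in the fit of all groups) and 1 of the 10 between the sorts late, and 545 genes (1486) with 0 of the 10 (limma; 5 at an unadjusted p below 0.05) for GFP late against E14.5. For GFP late against E14.5 the replicate block and the fit without the E18.5 arrays each gave 1 of the 10, against 2. Quantile normalization gave 0 of the 10 for GFP E14.5 against E13.5 (limma; 4 at an unadjusted p below 0.05), against 1, and median shifting gave 5 for the interaction, against 3. Leaving out 1 array gave 102 to 248 genes (359 with all) and 0 to 1 of the 10 for GFP E14.5 against E13.5 (without either E14.5 array 0, with 3 and 2 at an unadjusted p below 0.05), and 660 to 1355 genes and 1 to 4 of the 10 for GFP late against E14.5. Fits that left out arrays also rest on fewer of them, and the causes of these changes were not tested. Replicate numbers are shared by the sorts, but same-numbered arrays did not deviate together (correlations of -0.081 to 0.121), so they were not taken as pairs, and the replicate block gave 4468 genes at E13.5, against 4557. The precision is limited by 2 or 3 arrays a group.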

Other observations

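The array that its title calls mislabeled, which has no group here, had Aldh1l1 at 7.13 log2, Spock3 at 10.54, Spock1 at 9.78, Sparcl1 at 11.07 and Sparc at 11.30. Gpc4 was at 7.83, Gpc6 at 8.65, Thbs1 at 7.69, Thbs2 at 7.46, Thbs3 at 7.86 and Thbs4 at 7.02 on it.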
